A study of Mus musculus with 6 samples.

Results

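The 8 sarcomeric myosin heavy chain genes Myh1, Myh2, Myh3, Myh4, Myh6, Myh7, Myh7b and Myh8 were followed through 6 RNA sequencing libraries of regenerating mouse muscle. They were taken by name, by matching Ensembl identifiers to mouse gene symbols, and all 8 of 8 were found among the 52369 genes of the deposited table, whose unit is FPKM, or fragments per kilobase of gene at equal library depth. The rule uses no measured value, though the genes were chosen with earlier results of these data known. A mean of at least 1 FPKM over the 6 libraries was reached by 7 of the 8, the exception being Myh6, and these 7 are among the 14788 genes tested. The study injured the tibialis anterior, a fast muscle of the shin, and compared Linc-smad7 gain of function, called L7, with Control, in 3 libraries each. L7 libraries carry the genotype label Linc-smad7 overexpression and Control libraries the label control, and both come from C57BL/6 mice aged 6 weeks. In both groups the muscle received 50 µl of 10 µM cardiotoxin, a venom toxin that destroys muscle fibres and sets off their regeneration, when the mice were 5 weeks old. In both groups pcDNA3.1 plasmid, 6.25 µg in 10% glucose with an in vivo transfection reagent, was then given into the same muscle on the days written as 1/2, 2 and 4, and the muscle was taken on day 7. What the plasmid of each group carried, which cells took it up and whether each library is 1 animal were not given in the sources used here, so p-values measure only the spread between these libraries. Linc-smad7 is not tied to a gene identifier in the labels and its level is not used here.

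Myosin heavy chain is the motor of the thick filament, and each fibre makes a small choice from this gene family. In mouse muscle Myh3 encodes the embryonic chain and Myh8 the perinatal chain, which fibres make during development and make again for a time when they regenerate. Myh2, Myh1 and Myh4 encode the adult fast chains of type 2A, 2X and 2B fibres, in rising order of shortening speed. Myh7 encodes the slow chain of type 1 fibres and of heart ventricle, Myh6 the alpha chain of heart, and Myh7b a related chain that carries a microRNA, miR-499, in an intron. Adult mouse tibialis anterior is made mostly of type 2B and 2X fibres, with few slow ones, and as new fibres mature after an injury the developmental chains give way to the fast chains.

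The developmental and fast genes lie side by side, and the promoters of 4 of these 5 share sequence. On mm10, in the GENCODE M21 annotation, Myh3, Myh2, Myh1, Myh4 and Myh8 stand in that order on the plus strand of chromosome 11, within 230 kb from 67078300 to 67308634. Myh6 (54941921 to 54966927) and Myh7 (54970684 to 54994626) are neighbours on the minus strand of chromosome 14, and Myh7b lies on the plus strand of chromosome 2 from 155611212 to 155634307. RefSeq promoter windows were found for all 8 genes, and 5 are shown because they belong to the 5 genes that make up nearly all of the measured myosin heavy chain RNA. Each runs 5′ to 3′ on the plus strand from 250 bases before to 50 bases after the RefSeq start (GRCm38.p6), at chr11:67078050-67078349 for Myh3, chr11:67276874-67277173 for Myh8, chr11:67170777-67171076 for Myh2, chr11:67199852-67200151 for Myh1 and chr11:67237562-67237861 for Myh4. Capitals mark the 14 bases that the last 4 windows share, the matches to the MEF2 motif and the letters TATAAA.
Myh3: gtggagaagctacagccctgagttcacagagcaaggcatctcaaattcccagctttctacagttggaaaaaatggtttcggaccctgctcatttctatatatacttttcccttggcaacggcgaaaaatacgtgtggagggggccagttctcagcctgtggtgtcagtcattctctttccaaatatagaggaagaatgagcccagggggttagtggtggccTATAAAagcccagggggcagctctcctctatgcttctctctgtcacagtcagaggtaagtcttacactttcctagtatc
Myh8: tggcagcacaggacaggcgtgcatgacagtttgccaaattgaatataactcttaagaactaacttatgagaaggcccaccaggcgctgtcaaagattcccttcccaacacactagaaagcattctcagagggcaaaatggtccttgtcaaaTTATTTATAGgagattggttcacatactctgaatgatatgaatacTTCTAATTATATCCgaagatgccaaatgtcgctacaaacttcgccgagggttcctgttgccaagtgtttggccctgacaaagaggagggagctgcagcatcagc
Myh2: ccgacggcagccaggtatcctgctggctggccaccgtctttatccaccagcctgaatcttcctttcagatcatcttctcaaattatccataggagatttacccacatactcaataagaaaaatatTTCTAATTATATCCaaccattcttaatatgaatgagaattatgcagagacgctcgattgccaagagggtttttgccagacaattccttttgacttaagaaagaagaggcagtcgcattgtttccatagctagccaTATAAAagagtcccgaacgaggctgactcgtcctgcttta
Myh1: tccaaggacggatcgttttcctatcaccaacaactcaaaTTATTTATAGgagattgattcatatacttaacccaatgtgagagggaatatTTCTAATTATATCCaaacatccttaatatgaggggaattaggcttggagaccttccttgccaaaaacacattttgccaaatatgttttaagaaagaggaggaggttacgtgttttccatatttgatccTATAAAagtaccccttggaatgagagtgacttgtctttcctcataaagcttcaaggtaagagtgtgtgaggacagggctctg
Myh4: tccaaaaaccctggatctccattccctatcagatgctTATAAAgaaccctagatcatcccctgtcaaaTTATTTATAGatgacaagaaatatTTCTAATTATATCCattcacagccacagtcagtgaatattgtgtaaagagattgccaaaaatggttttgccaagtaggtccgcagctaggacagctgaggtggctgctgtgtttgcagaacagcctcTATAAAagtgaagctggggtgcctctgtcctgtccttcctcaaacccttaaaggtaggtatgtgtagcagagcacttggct
The shared run TTCTAATTATATCC begins at -54 in Myh8, -125 in Myh2, -160 in Myh1 and -158 in Myh4, counted in bases from the RefSeq start. It stands in 4 of 32851 RefSeq promoter windows of this length, those of these 4 genes. The run was taken from these windows, so the 4 matches hold by construction. A run of 14 bases is also rare by its length alone, so this count says nothing on specificity. The longest run shared by any pair of windows was 22 bases, in Myh8 and Myh1, while Myh3 shared at most 11 bases with any other member.
Motifs were searched on both strands. The MEF2 motif, bound by the muscle transcription factors of that name, matched as TTATTTATAG at -99 in Myh8, -211 in Myh1 and -182 in Myh4, and stands in 3.19% of all windows. It had no match in the windows of Myh3, Myh2, Myh7, Myh7b and Myh6. The 3 matches lie inside runs that the windows share, of 22 bases in Myh8 and Myh1 and 17 bases in Myh8 and Myh4. They are therefore not 3 separate hits to set beside the percentage of all windows. TATAAA, the TATA box letters, stands at -29 in Myh3, -32 in Myh1, -31 and -213 in Myh4, 11 in Myh2 and 2 in Myh6, and in 13.6% of all windows. Read on the minus strand, these letters also lie inside each MEF2 match, so those matches are not separate. The E-box CANNTG, the letters bound by MyoD and its relatives, stands in 72.3% of windows and in those of Myh3, Myh8, Myh4, Myh7, Myh7b and Myh6. CATTCC, the letters of the TEAD sites called MCAT, stands in 14.7% of windows and in those of Myh1, Myh4, Myh7 and Myh6. The CArG motif of serum response factor stands in 1.63% of windows and matched in that of Myh4 alone. These matches describe letters and not binding.

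The libraries hold 19420012 to 24663153 reads in genes each. L7 replicate 3 stands apart from the other 5 libraries, with correlations over genes of 0.920 to 0.951 to them, against 0.979 to 0.989 among the others. Member values are therefore given for every library, and their main differences also without this one. With median of ratios scaling its factor is 0.776 and those of the others lie from 1.03 to 1.10, which moves the median log2 difference of all genes tested, which is -0.15 on FPKM as deposited, to -0.002. Log2 differences are given as fitted and stand beside that median.

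The developmental genes did not separate the groups. Myh3, the embryonic chain, had 377, 356 and 137 FPKM in L7 libraries and 337, 274 and 207 FPKM in Control libraries. The groups overlapped, with 2 L7 libraries above every Control library and L7 replicate 3 below every one of them. Its mean was 290.1 ± 133 FPKM in L7 and 273 ± 64.9 FPKM in Control (SD, n = 3 each). Limma, fitted to log2(FPKM + 1) of all genes tested, gave Myh3 a log2 difference of -0.02 ± 0.40 (SE) with an adjusted p of 0.983, and the exact permutation p was 0.8. Without L7 replicate 3 the L7 mean was 367 FPKM and the log2 difference was 0.45 ± 0.21 (SE), with a limma adjusted p of 0.762. With median of ratios scaling of all 6 libraries the difference was 0.16, and without Control replicate 1 it was 0.15, so the sign of Myh3 rests on the scaling and on either of these libraries.
Myh8, the perinatal chain, had 552, 520.3 and 266 FPKM in L7 libraries and 349.9, 443 and 290.2 FPKM in Control libraries. On FPKM as deposited the pattern is that of Myh3. L7 replicates 1 and 2 lay above every Control library and L7 replicate 3 below all of them. The mean was 446 ± 157 FPKM in L7 and 361 ± 77.0 FPKM in Control (SD, n = 3 each), with a limma log2 difference of 0.25 ± 0.32 (SE), an adjusted p of 0.689 and p = 0.5 in the exact permutation test. Without L7 replicate 3 the L7 mean was 536 FPKM and the log2 difference was 0.59 ± 0.19 (SE), with a limma adjusted p of 0.734. After median of ratios scaling L7 replicate 3 stood at 342 for Myh8, within the Control values of 318, 418 and 282. For Myh3 this library stayed below every Control library, at 176 against 306, 259 and 201. In bulk tissue such as this, fewer fibres of a kind and less RNA per fibre cannot be told apart.

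The fast genes had higher means in L7, with log2 differences of 1.01 to 1.13, and the spread among L7 libraries was wide. Myh4, the 2B chain and the most abundant of the family, had 696, 775 and 2914 FPKM in L7 libraries and 420.0, 519 and 689 FPKM in Control libraries. Each L7 value was above each Control value, but by a thin margin, since L7 replicate 1 at 696 FPKM stood next to Control replicate 3 at 689 FPKM. With median of ratios scaling the same libraries stood at 669.3 and 668.7. The mean was 1462 ± 1258 FPKM in L7 and 543 ± 136 FPKM in Control (SD, n = 3 each). The limma log2 difference was 1.13 ± 0.54 (SE) with p = 0.0731 and an adjusted p of 0.580, and the exact permutation test gave p = 0.1, its lowest possible value for 3 against 3 libraries. Without L7 replicate 3 the L7 mean was 736 FPKM and the log2 difference was 0.47 ± 0.22 (SE), with a limma adjusted p of 0.765.
Myh1, the 2X chain, had 564, 683 and 1511 FPKM in L7 libraries and 224, 693 and 456 FPKM in Control libraries. Control replicate 2 lay above 2 of the L7 libraries, so the groups overlapped. The mean was 919.5 ± 515 FPKM in L7 and 458 ± 235 FPKM in Control (SD, n = 3 each), with a limma log2 difference of 1.01 ± 0.50 (SE), an adjusted p of 0.580 and p = 0.3 in the exact permutation test. Without L7 replicate 3 the L7 mean was 624 FPKM and the log2 difference 0.58 ± 0.45 (SE), with a limma adjusted p of 0.814.
Myh2, the 2A chain, had 22.5, 52.3 and 148 FPKM in L7 libraries and 10.3, 53.9 and 32.0 FPKM in Control libraries. It was the lowest of the fast genes in every library, and Control replicate 2 lay between the L7 libraries. The mean was 74.4 ± 65.8 FPKM in L7 and 32.1 ± 21.8 FPKM in Control (SD, n = 3 each), with a limma log2 difference of 1.06 ± 0.76 (SE), an adjusted p of 0.580 and p = 0.5 in the exact permutation test. Without L7 replicate 3 the L7 mean was 37.4 FPKM and the log2 difference 0.37 ± 0.68 (SE), with a limma adjusted p of 0.930.

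**Figure D1:**
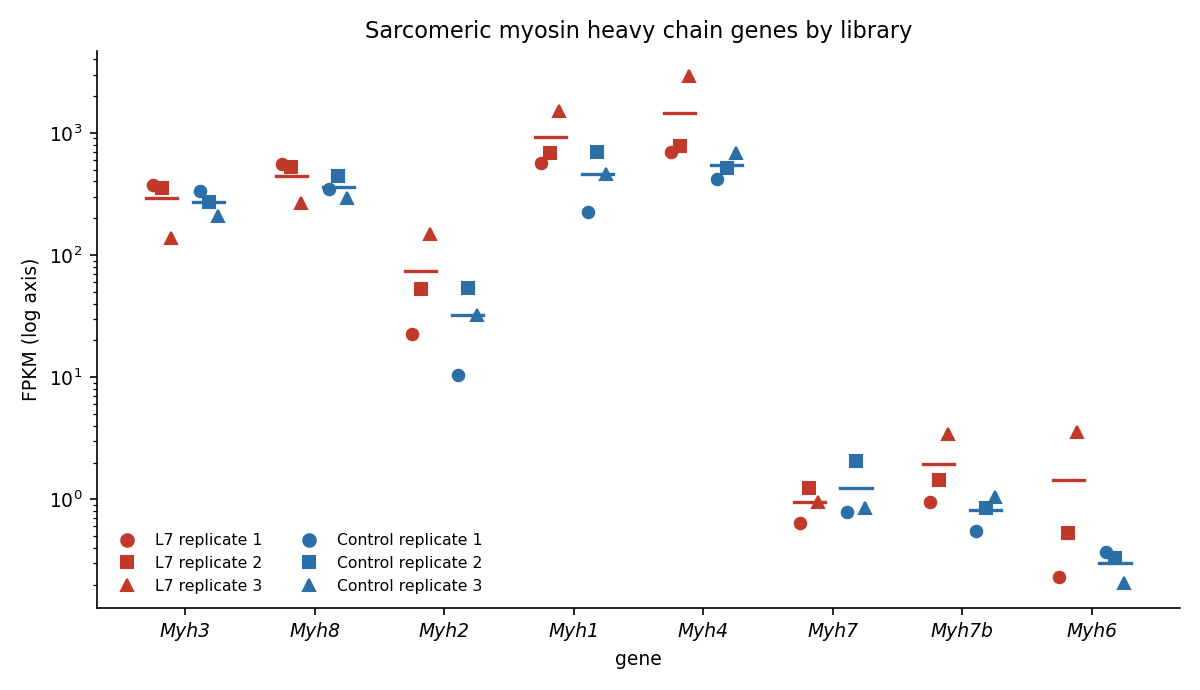
FPKM of the 8 genes on a log axis, with L7 libraries to the left (red) and Control libraries to the right (blue) of each gene. Symbols mark the replicate and bars the group mean. L7 replicate 3 (triangle) is the lowest of the 6 libraries for Myh3 and Myh8 and the highest for Myh2, Myh1, Myh4, Myh7b and Myh6.

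The slow and cardiac genes were near the floor of the measurement in both groups. Myh7, the slow chain, had 0.644, 1.25 and 0.960 FPKM in L7 libraries and 0.788, 2.05 and 0.854 FPKM in Control libraries, from 59, 107 and 84 reads in L7 and 68, 164 and 87 reads in Control. The values of the groups lie among one another, with the highest in Control replicate 2, and the limma log2 difference was -0.16 ± 0.25 (SE) with an adjusted p of 0.746 and p = 0.7 in the exact permutation test. Without Control replicate 2 it was 0.09.
Myh7b had 0.955, 1.43 and 3.42 FPKM in L7 libraries and 0.555, 0.844 and 1.04 FPKM in Control libraries, from 53, 74 and 181 reads in L7 and 29, 41 and 64 reads in Control. Only L7 replicate 1 fell within the Control range. The limma log2 difference was 0.61 ± 0.31 (SE) with an adjusted p of 0.580, the exact permutation p was 0.2, and without L7 replicate 3 the difference was 0.27. At this level the pseudocount bears on it, and the log2 difference was 1.00 with a pseudocount of 0.1 and 1.06 in limma voom on the recovered reads, with adjusted p-values of 0.582 and 0.578 in that order.
Myh6, the alpha chain of heart, had 0.232, 0.528 and 3.55 FPKM in L7 libraries and 0.370, 0.331 and 0.209 FPKM in Control libraries. Its reads numbered 8, 17 and 117 in L7 and 12, 10 and 8 in Control, so the higher L7 mean, 1.44 ± 1.84 FPKM against 0.303 ± 0.0840 FPKM in Control (SD, n = 3 each), came from L7 replicate 3. Without it the L7 mean was 0.380 FPKM. Its mean over all libraries was under 1 FPKM, so it has no limma test, and the exact permutation p was 0.3.

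None of the 7 tested members was called by limma (adjusted p under 0.05), and 0 had an unadjusted limma p under 0.05. Among all 14788 genes tested 0.0% passed, 873 had an unadjusted limma p under 0.05, the smallest adjusted p was 0.468, and limma voom on reads recovered from the FPKM also called 0 genes. Of the 7 members, 1, Myh4, had every L7 library above every Control library, which 5.49% of all genes tested did. No member had every L7 library below every Control library, which 13.7% of all genes tested did. The authors' own comparison marked 359 genes as significant, where the 2 fits above called 0. In the deposited table of that comparison the adjusted p was 1 for each of the 8 genes. That table gives a log2 fold change of 0.21 for Myh3, 0.44 for Myh8, 1.53 for Myh2, 1.28 for Myh1, 1.75 for Myh4, -0.18 for Myh7, 1.54 for Myh7b and 2.64 for Myh6.

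The order of the genes depends on the length by which their reads were divided. For 85.3% of 12414 annotated genes with over 500 reads, the length that turns reads into the deposited FPKM lay within 2% of the mean length of the gene's annotated transcripts, short fragments included. For Myh3 this length was 6006 bases and for Myh4 5964 bases, close to their longest coding transcripts of 6031 and 6016 bases. For Myh8 it was 4193 bases, against 6149 bases in the longest coding transcript, for Myh1 4666 against 6081 bases and for Myh2 4530 against 6083 bases. For Myh7b it was 2501 against 6163 bases, for Myh7 4129 against 6230 bases and for Myh6 1554 against 6113 bases. Myh7 and Myh6 are the members whose length did not match their annotated means of 2283 and 2097 bases. The FPKM of these last 6 genes are thus higher, by 1.30 to 3.93 times, than reads per length of the full transcript, by the same factor in both groups, so the fold between groups for 1 gene is untouched. The difference in FPKM scales with that factor, and for genes near 1 FPKM the fitted log2(FPKM + 1) difference moves with it too.
Divided by the longest coding transcript, Myh4 was the highest at 1449 ± 1247 in L7 and 538 ± 135 in Control, in FPKM rescaled to that length (SD, n = 3 each). Myh1 came next at 706 ± 396 in L7 and 351 ± 180.0 in Control on this scale, and Myh3 at 289 ± 133 in L7 and 272 ± 64.6 in Control. Myh8 overlapped with Myh3, at 304 ± 107 in L7 and 246 ± 52.5 in Control, whereas its deposited FPKM is above that of Myh3 in every library. Myh2 averaged 55.4 ± 49.0 in L7 and 23.9 ± 16.2 in Control, Myh7 0.631 ± 0.201 in L7 and 0.815 ± 0.469 in Control, and Myh7b 0.784 ± 0.530 in L7 and 0.330 ± 0.0986 in Control. Myh6 averaged 0.366 ± 0.467 in L7 and 0.0771 ± 0.0214 in Control. Myh4 and Myh1, Myh1 and Myh3, Myh3 and Myh8, Myh7 and Myh7b, and Myh7b and Myh6 are neighbours whose values overlapped over the 6 libraries, while every value of Myh8 was above every value of Myh2, and every value of Myh2 above every value of Myh7.

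**Figure D2:**
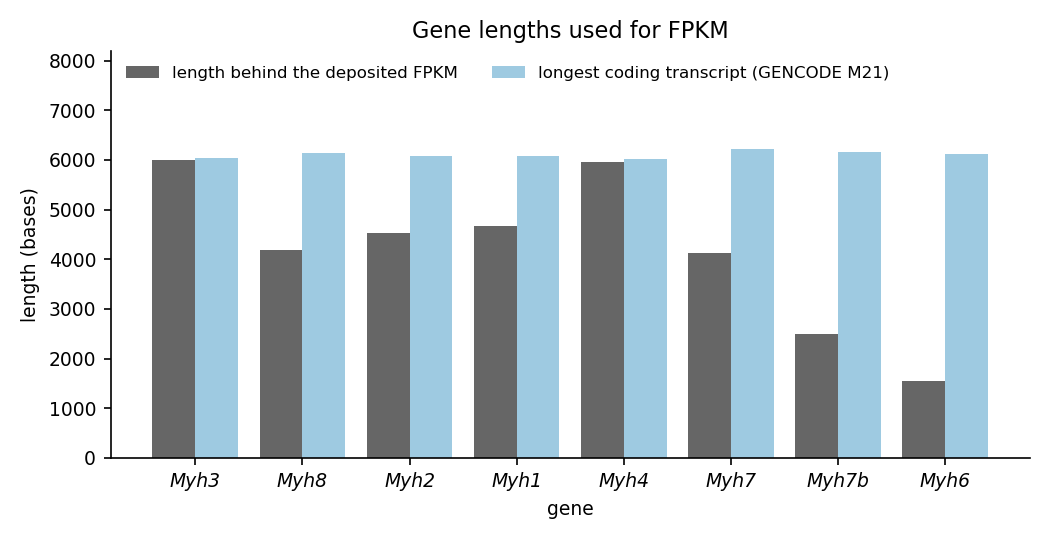
Length in bases behind the deposited FPKM (grey) and length of the longest coding transcript in GENCODE M21 (blue) for the 8 genes. The bars are nearly equal for Myh3 and Myh4 and differ most for Myh7b (2501 against 6163 bases) and Myh6 (1554 against 6113 bases).

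These paralogs also share stretches of transcript, and how the counting treated reads that match more than 1 of them was not given in the sources used here. Of the 50-base windows along the longest coding transcript, 26.7% in Myh2, 26.1% in Myh1, 19.9% in Myh8 and 18.6% in Myh4 were identical to a stretch of another member. The share was 22.2% in Myh7 and 22.6% in Myh6, 3.66% in Myh3 and 0 in Myh7b. At 100 bases it was 9.17% in Myh2, 9.46% in Myh1, 5.17% in Myh8, 3.85% in Myh4, 11.2% in Myh7, 11.4% in Myh6 and 0 in Myh3. Levels of these paralogs, above all Myh6 beside Myh7 and Myh2 beside the far more abundant Myh1, are uncertain to that extent, because a small part of the reads of 1 gene could be counted for the other.

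Together the 8 genes took 1.15%, 1.24% and 2.71% of the reads in genes in L7 libraries and 0.709%, 1.01% and 0.885% in Control libraries. In L7 replicate 3 the 95% Wilson interval was 2.698% to 2.712%, and in Control replicate 1 it was 0.706% to 0.713%, which covers counting error only and is far narrower than the spread between libraries of 1 group. Their summed FPKM were 2215, 2390.2 and 4984 in L7 libraries and 1343, 1986 and 1677 in Control libraries, each L7 value above each Control value. The log2 of the sum was 0.85 higher in L7 in the mean of all 6 libraries and 0.48 higher without L7 replicate 3. The sum of the fast genes was 1283, 1510.4 and 4573 FPKM in L7 libraries and 655, 1266 and 1177 FPKM in Control libraries, again without overlap, though L7 replicate 1 exceeded Control replicate 2 by only a small step. The developmental sum was 929, 877 and 403 FPKM in L7 libraries and 687, 717 and 498 FPKM in Control libraries. On FPKM as deposited, 2 L7 libraries lay above and 1, L7 replicate 3, below all Control libraries. The low place of L7 replicate 3 depends on the scaling, since after median of ratios scaling its Myh8 lay within the Control range.

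As shares of the summed FPKM, the composition of the family differed more within the groups than between them. The developmental genes made up 42.0%, 36.7% and 8.08% in L7 libraries and 51.1%, 36.1% and 29.7% in Control libraries. L7 replicates 1 and 2 lay within the Control range and L7 replicate 3 lay far below it. The developmental mean was 28.9 ± 18.2% in L7 and 39.0 ± 11.02% in Control (SD, n = 3 each), and without L7 replicate 3 the L7 mean was 39.3%. The fast genes made up 58.0%, 63.2% and 91.8% in L7 libraries and 48.7%, 63.8% and 70.2% in Control libraries, and the L7 mean of 70.97 ± 18.2%, against 60.9 ± 11.02% in Control (SD, n = 3 each), became 60.6% without L7 replicate 3. The slow and cardiac genes made up 0.0827%, 0.134% and 0.159% in L7 libraries and 0.127%, 0.162% and 0.125% in Control libraries. Counted per length of the longest coding transcript, the developmental share averaged 27.2% in L7 and 37.1% in Control and the slow and cardiac share 0.0623% in L7 and 0.0834% in Control.
Of single genes, Myh4 took 31.4%, 32.4% and 58.5% in L7 libraries and 31.3%, 26.1% and 41.1% in Control libraries, with an exact permutation p of 0.5. Myh1 took 25.5%, 28.6% and 30.3% in L7 libraries and 16.7%, 34.9% and 27.2% in Control libraries, so its share moved little between L7 libraries, replicate 3 included. Myh3 took 17.0%, 14.9% and 2.75% in L7 libraries and 25.1%, 13.8% and 12.4% in Control libraries, and Myh8 took 24.9%, 21.8% and 5.33% in L7 libraries and 26.0%, 22.3% and 17.3% in Control libraries. For each of the 8 genes the shares of the groups overlapped, with exact permutation p-values from 0.2 for Myh7 to 0.8 for Myh1.

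**Figure D3:**
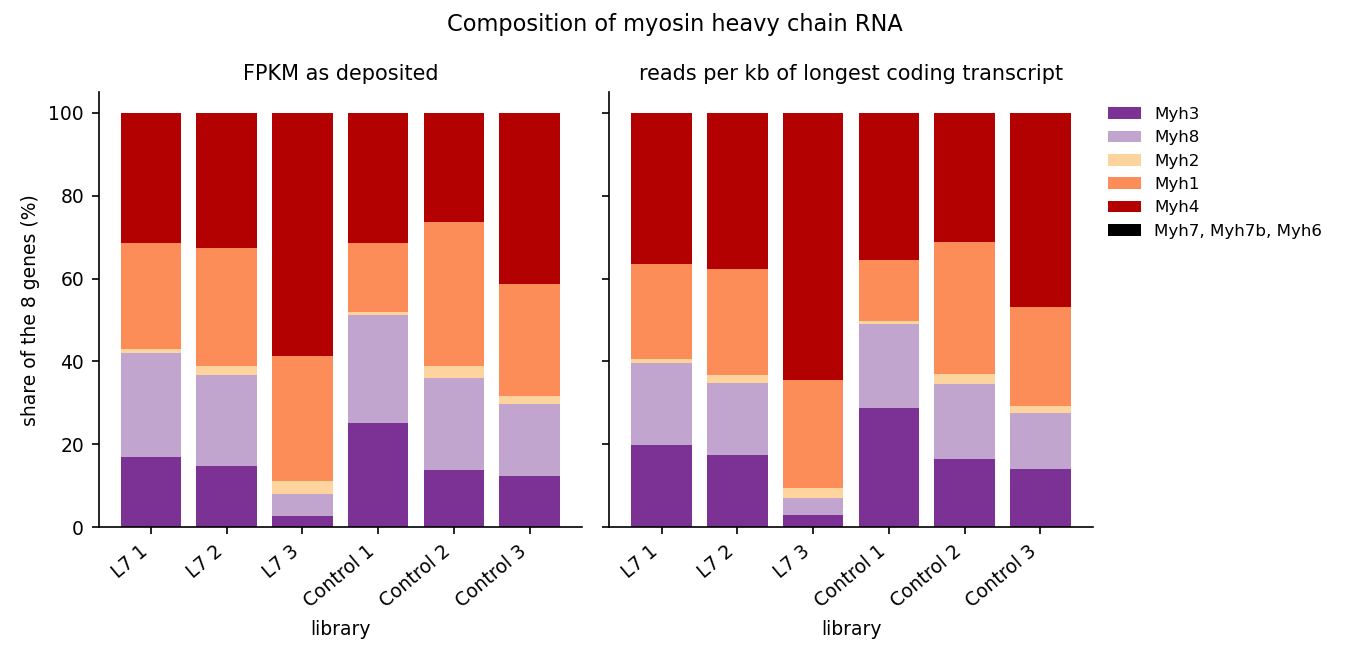
Share in percent of each gene in the summed level of the 8 genes, 1 bar per library, L7 libraries first, with FPKM as deposited on the left and reads per kilobase of the longest coding transcript on the right. The developmental share (purple) is 8.08% in L7 replicate 3 and 29.7% to 51.1% in the other 5 libraries in the left plot, and the slow and cardiac share is too small to see.

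Ratios within a library do not depend on its scaling, and none of the 5 ratios computed separated the groups. The log2 ratio of Myh8 over Myh3 was 0.55, 0.55 and 0.96 in L7 libraries and 0.05, 0.69 and 0.48 in Control libraries, with an exact permutation p of 0.4. Per longest coding transcript the same ratio was 0.0033, -0.00038 and 0.41 in L7 and -0.49, 0.15 and -0.06 in Control, on both sides of equality. Myh8 stood highest over Myh3 in L7 replicate 3, where both were lowest in FPKM as deposited.
Adult over embryonic, the log2 ratio of Myh4 over Myh3 was 0.88, 1.12 and 4.41 in L7 libraries and 0.32, 0.92 and 1.73 in Control libraries, with an exact permutation p of 0.6. L7 replicate 3 was far above the other 5 libraries, and without it the L7 mean of 1.00 and the Control mean of 0.99 were nearly equal. Myh4 over Myh1 was 0.30, 0.18 and 0.95 in L7 libraries and 0.91, -0.42 and 0.60 in Control libraries, with an exact permutation p of 0.9. Myh2 over Myh1 was -4.65, -3.71 and -3.35 in L7 libraries and -4.44, -3.69 and -3.83 in Control libraries, also with an exact permutation p of 0.9, so 2A RNA stayed far below 2X RNA everywhere. Myh7 over Myh3 was -9.19, -8.15 and -7.16 in L7 libraries and -8.74, -7.06 and -7.92 in Control libraries, with an exact permutation p of 0.7.

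**Figure D4:**
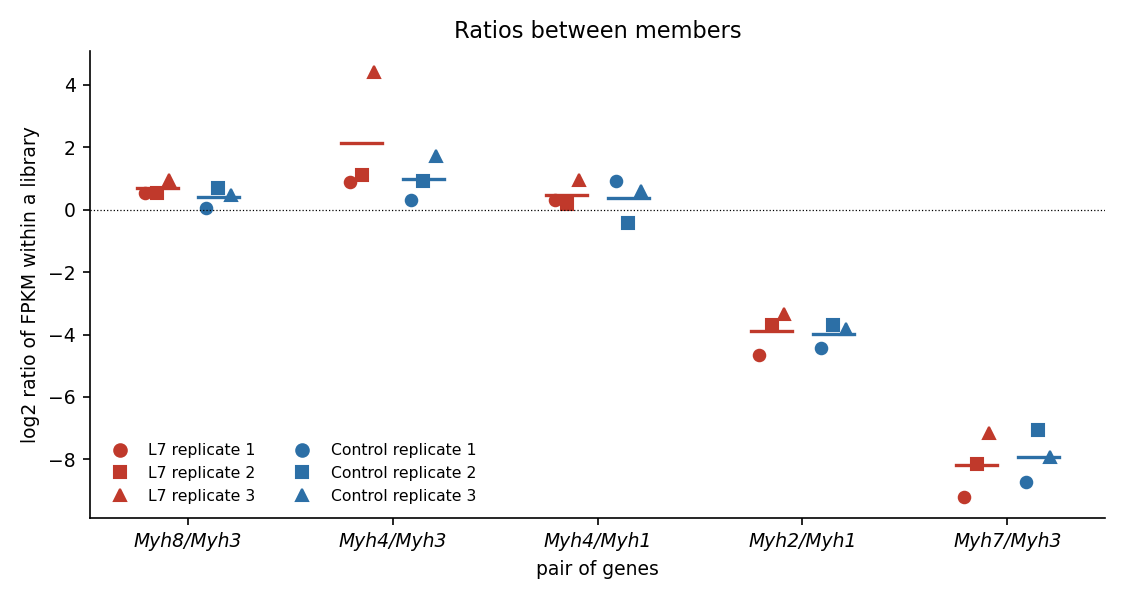
Log2 ratio of FPKM between pairs of the genes within each library, L7 to the left (red) and Control to the right (blue) of each pair, with symbols for the replicate and bars for the mean. The groups overlap in every pair, and L7 replicate 3 stands apart in Myh4 over Myh3, at 4.41 against 0.32 to 1.73 in the other 5 libraries.

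Presence of Y-linked reads divides the libraries in another way than the groups do, but not independently of them. Libraries with these reads are 1 of L7 and 2 of Control. Those without are 2 of L7, L7 replicate 3 among them, and 1 of Control. Reads of 4 Y-linked genes numbered 3185 in L7 replicate 1, 4184 in Control replicate 1 and 4168 in Control replicate 3, and 0 to 2 in the other 3 libraries. Myh1 had 224 to 564 FPKM in libraries with these reads and 683 to 1511 FPKM in those without, and Myh2 had 10.3 to 32.0 FPKM with and 52.3 to 148 FPKM without, so neither overlapped. Myh7 likewise had 0.644 to 0.854 FPKM with these reads and 0.960 to 2.05 FPKM without. So 3 of the 7 tested members were lower in every library with Y-linked reads, as were 3.94% of all genes tested, while 0 of the 7 were higher in all of them, as were 11.3% of all genes tested. Myh4 overlapped, with 420.0 to 696 FPKM with and 519 to 2914 FPKM without, and so did Myh3, with 207 to 377 FPKM with and 137 to 356 FPKM without. Myh8, Myh7b and Myh6 overlapped as well. Among libraries with Y-linked reads, L7 replicate 1 and the mean of the 2 Control libraries were at 564 and 340.2 FPKM for Myh1 and at 696 and 555 FPKM for Myh4. Among those without, the mean of 2 L7 libraries and Control replicate 2 were at 1097 and 693 FPKM for Myh1 and at 1844 and 519 FPKM for Myh4. With Y-linked reads as a covariate the limma log2 difference was 0.68 for Myh1, 0.49 for Myh2 and 0.95 for Myh4, each with an adjusted p of 0.871. The part of sex in these levels was not tested beyond these values.

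Antisense and other transcripts of the gene cluster were measured too. Myhas, annotated as antisense to the stretch from Myh1 to Myh4, had 8.57, 9.29 and 47.7 FPKM in L7 libraries and 5.97, 9.97 and 11.4 FPKM in Control libraries. It was highest in L7 replicate 3, like the fast genes beside it, and the groups overlapped. Its exons cover 8.11% of the exon bases of Myh1, and since the strand setting behind these reads was not given in the sources used here, reads of the pair cannot be told apart there. The intergenic RNA 2310065F04Rik, between Myh3 and Myh2, had 2.46, 2.79 and 6.63 FPKM in L7 libraries and 1.93, 2.32 and 2.06 FPKM in Control libraries, with each L7 value above each Control value. Myh13, the gene of an eye muscle chain that follows Myh8 in the cluster, had 0.136, 0.156 and 1.75 FPKM in L7 libraries and 0.103, 0.0778 and 0.114 FPKM in Control libraries. The microRNA genes within members, Mir6923 in Myh3, Mir499 in Myh7b, Mir208a in Myh6 and Mir208b in Myh7, were at 0 reads in all 6 libraries, in libraries made from poly-A selected RNA.

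Marker genes of fibre and other cells were set beside the family, as sums of FPKM. Counts of markers lowest or highest in L7 replicate 3 are on FPKM as deposited. The median of ratios factor of that library is 0.776, so a typical gene stands lower there on this scale. The counts were not repeated with that scaling. The share of all genes tested that were lowest there was not counted, so they have no background to stand beside. The 10 muscle fibre markers summed to 24166, 27071 and 76652 FPKM in L7 libraries and 14734, 22377 and 21872 FPKM in Control libraries, and 9 of the 10 were highest in L7 replicate 3, the exception being Tnnc2 at 0.977 to 2.33 FPKM. Tnnc2 rests on 110 reads in all, while the troponins Tnni2 and Tnnt3 of the same list had at least 1692 and 3049 FPKM. Whether the counting lost reads of Tnnc2 was not tested. The 8 regenerating fibre markers summed to 4257, 3599.7 and 3851 FPKM in L7 libraries and 2965, 2987 and 2126 FPKM in Control libraries. Most of this sum is Actc1, the cardiac actin of new fibres, at 3398, 2817 and 3473 FPKM in L7 libraries and 1978, 2265 and 1464 FPKM in Control libraries, and the other 7 were lowest in L7 replicate 3, like Myh3 and Myh8. Myog, which drives differentiation of myoblasts, was at 159, 153 and 73.2 FPKM in L7 libraries and 188, 146 and 166 FPKM in Control libraries.
The 6 slow fibre markers summed to 1227 to 2088 FPKM in L7 and 1487 to 1930 FPKM in Control, with 4 of 6 lowest in L7 replicate 3. The slow troponin Tnni1 was at 359 to 627 FPKM over the 6 libraries, where Myh7 was at most 2.05 FPKM. Of the 8 heart markers 7 were under 1 FPKM in every library, and the atrial light chain Myl7 had 0 reads throughout. The exception was Tnni3, the cardiac troponin I, at 5.94, 10.0 and 6.76 FPKM in L7 libraries and 6.70, 4.16 and 13.2 FPKM in Control libraries.
The 8 macrophage markers summed to 1672 to 3624 FPKM in L7 and 2360 to 3342 FPKM in Control, with 7 of 8 lowest in L7 replicate 3. The 6 neutrophil markers summed to 51.0 to 299 FPKM in L7 and 164 to 269 FPKM in Control, with 5 of 6 lowest in L7 replicate 3. The 7 fibro-adipogenic markers summed to 6304 to 10128 FPKM in L7 and 7805 to 10440.2 FPKM in Control. Most of this sum is the collagen gene Col1a1, at 5347 to 9283 FPKM over the 6 libraries. Of these 7 markers 3 were lowest and 3 highest in L7 replicate 3. The 6 endothelial markers summed to 186 to 194 FPKM in L7 and 169 to 211 FPKM in Control, with 0 lowest and 2 highest in L7 replicate 3. The part of these cell types in the myosin heavy chain values was not tested.

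**Figure D5:**
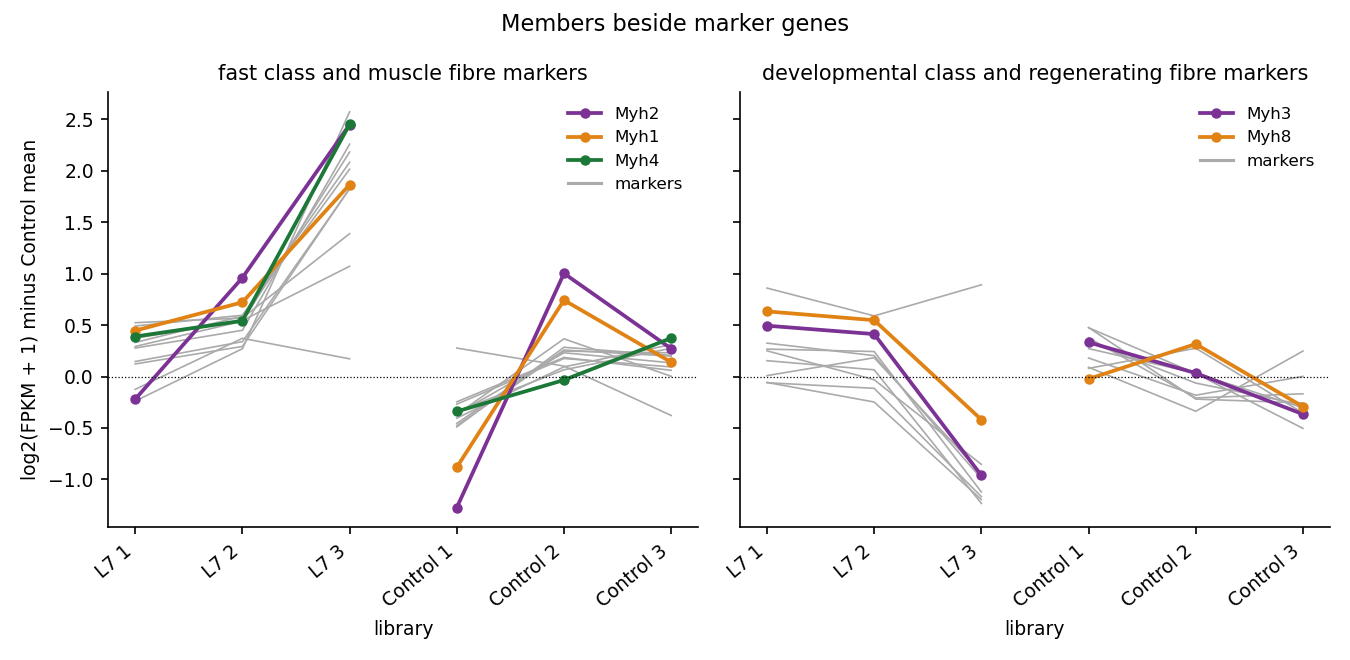
Difference of log2(FPKM + 1) from the Control mean for the fast genes beside the 10 muscle fibre markers (left plot) and for the developmental genes beside the 8 regenerating fibre markers (right plot), L7 libraries first. Each line joins the values of 1 gene within a group and has no order in time. In L7 replicate 3 the fast genes and 9 of 10 fibre markers are at their highest, and Myh3, Myh8 and 7 of 8 regenerating fibre markers at their lowest.

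Other genes of the thick filament and of fibre type control were followed in lists. Of the 15 thick filament partners, the proteins that bind myosin heavy chain or hold its filament, 0 passed limma, 14 had positive and 1 negative log2 differences, and in 7 every L7 library was above every Control library, beside 5.49% of all genes tested. In 0 every L7 library was below, beside 13.7% of all genes tested. The median of the list was 0.56, beside -0.15 for all genes tested, and 0.35 beside -0.03 without L7 replicate 3. Mylpf, the fast regulatory light chain, had 10728, 10745 and 23607 FPKM in L7 libraries and 8369, 9710.0 and 8534 FPKM in Control libraries, with a limma log2 difference of 0.66 ± 0.43 (SE) and an adjusted p of 0.580. The fast essential light chain Myl1 had 5251, 5906 and 12906 FPKM in L7 libraries and 4434, 5762 and 4846 FPKM in Control libraries, and the groups overlapped. Mybpc1, the slow-type myosin-binding protein C, had 812, 804 and 1309 FPKM in L7 libraries and 448, 694 and 539 FPKM in Control libraries, with no overlap, a limma log2 difference of 0.78 ± 0.27 (SE) and an adjusted p of 0.580.
Among the 12 factors that fold, assemble, phosphorylate or degrade myosin, 0 passed limma, 9 had positive and 3 negative log2 differences, 4 had every L7 library above every Control library (5.49% of all genes tested) and 1 had every L7 library below (13.7% of all genes tested). Their median was 0.42, and 0.18 without L7 replicate 3. Hsp90ab1, a general chaperone, had 1553, 1572 and 1232 FPKM in L7 libraries and 1464, 1489.6 and 1756 FPKM in Control libraries. Smyd1, a muscle methyltransferase needed for sarcomere assembly, had 141, 149.6 and 253 FPKM in L7 libraries and 103, 116 and 123 FPKM in Control libraries, with a limma log2 difference of 0.62 ± 0.24 (SE) and an adjusted p of 0.580. The chaperone of myosin itself, Unc45b, had 67.2, 67.0 and 75.2 FPKM in L7 libraries and 57.4, 55.8 and 55.5 FPKM in Control libraries, without the jump in L7 replicate 3 that Myh4 had.
Of the 32 fibre type regulators 0 passed limma, with 17 positive and 15 negative log2 differences and a median of 0.03, or 0.10 without L7 replicate 3. In 5 of them every L7 library was above every Control library, beside 5.49% of all genes tested, and in 0 below, beside 13.7%. The most abundant were Nfix, a factor of the switch from embryonic to fetal muscle genes, at 188, 210.2 and 205 FPKM in L7 libraries and 157, 205 and 151 FPKM in Control libraries, and the MEF2 factor Mef2c, at 166, 177 and 155 FPKM in L7 libraries and 147, 158 and 121 FPKM in Control libraries. Myog, given above, came next, with a limma log2 difference of -0.45 ± 0.31 (SE) and an adjusted p of 0.580.
Of the 6 other myosin heavy chain genes 4 were tested and 0 passed, with 2 positive and 2 negative log2 differences and groups that overlapped. Myh9, a non-muscle chain, had 303, 289 and 135 FPKM in L7 libraries and 314, 296 and 296 FPKM in Control libraries. Myh10, another non-muscle chain, had 25.6, 27.6 and 16.0 FPKM in L7 libraries and 28.0, 32.7 and 19.3 FPKM in Control libraries. Myh14 had 2.94, 3.76 and 10.1 FPKM in L7 libraries and 1.00, 2.01 and 3.19 FPKM in Control libraries.

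Among 8021 genes with a mean of at least 10 FPKM, those whose profile over the 6 libraries was most like that of each class were found by the root mean square difference of centred log2(FPKM + 1) values. Nearest to the fast genes, whose own profile has an SD of 0.84, were Pygm, the muscle glycogen phosphorylase, at 0.0769, Smtnl1 at 0.0770, Atp2a1, the calcium pump of fast fibres, at 0.0801, Ckm, the muscle creatine kinase, at 0.0898, and Acta1, the skeletal actin, at 0.0959. Pygm had 793, 905 and 2758 FPKM in L7 libraries and 443, 719 and 705 FPKM in Control libraries.
Nearest to the developmental genes, whose profile has an SD of 0.43, were Fgf11 at 0.114, Myo10, a myosin of filopodia, at 0.117, Fgfrl1, a receptor-like protein of the fibroblast growth factor family, at 0.138, Soga1 at 0.141 and Peg3, an imprinted gene, at 0.149. Myo10 had 123, 116 and 63.7 FPKM in L7 libraries and 98.6, 96.6 and 79.6 FPKM in Control libraries, with the groups overlapping as they did for Myh3 and Myh8. Nearest to the slow and cardiac genes, whose profile has an SD of 0.58, were Dyrk1b at 0.142, Rilp at 0.150, Myl1 at 0.151, Cuedc1 at 0.152 and Art1 at 0.155. That profile is a sum of low values whose members differ. In L7 replicate 3 Myh6 and Myh7b were at their highest, 3.55 and 3.42 FPKM. Myh7 was at 0.960 FPKM there and highest in Control replicate 2, at 2.05 FPKM, so the profile does not describe Myh7. On FPKM as deposited, L7 replicate 3 is the extreme library in each of these 3 class profiles. For the developmental class this depends on the scaling.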

How the data were processed

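The authors deposited a table of FPKM per gene and library and a table of their own comparison. Per the file headers, the comparison made by the authors holds, for each gene, p-values before and after adjustment, the log2 fold change and a normalised signal for either group, which is the mean of read counts over size factors. The submitters' processing notes name, without their roles, DESeq 1.12.0, HISAT2 2.0.4, TopHat2 2.0.12 and Bowtie2 2.2.3, with mm10 as the build. The counting program, its strand setting, the annotation and the read length were not given in the sources used here. Whole reads were recovered from the steps of the deposited FPKM and the normalised signal of the authors: all 152096 values above 0 came within 0.05 of a whole number. They give the depth, 19420012 to 24663153 reads in genes per library, the read numbers and the lengths behind FPKM.

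Groups were compared on log2(FPKM + 1) in R 4.3.3 with the trended test of limma 3.58.1, with a pseudocount of 1 that understates changes of low genes, over the 14788 genes with a mean of at least 1 FPKM. Tests were two-sided, with Benjamini-Hochberg adjustment over all genes tested and a threshold of 0.05. Single members, shares and ratios had an exact two-sided permutation test over the 6 libraries. The fit was also run on simulated data, but no outcome is reported here, so that run lends no weight to the results above. Groups came from the sample titles, and every column of values was tied to 1 library or 1 group. The labels state no pairing of libraries, and the main fit used none. Alternatives were the pseudocount, the filter, median of ratios scaling, array weights, voom on the recovered reads, a block, Y-linked reads as a covariate, other lengths and leaving out each library. The members and gene lists were chosen with earlier results of these data known. Named genes are the 8 members, the 3 of highest mean FPKM in each list, the 5 nearest each class profile and marker genes. The cluster transcripts Myhas, 2310065F04Rik, Myh13 and the microRNA genes, and the single markers Tnnc2, Tnni2, Tnnt3, Actc1, Tnni1, Tnni3, Myl7 and Col1a1, were named after their values were seen. One marker list and some genes called in alternatives are not reported here. Gene models came from GENCODE M21 and promoters from RefSeq (GRCm38.p6). Tables and figures used Python 3.11.15, pandas 2.3.3, numpy 2.4.6, SciPy 1.17.1 and matplotlib 3.10.9.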

Additional observations from a re-analysis of the deposited data

How the results depend on the processing

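With all alternatives, each of the 7 tested members had an adjusted limma p above 0.05, from 0.387 to 0.999. No gene was called in the main fit. With array weights on the same 6 libraries 3 were called, among them Gm20544. Without L7 replicate 1, 1 (Gm5559) was called. After median of ratios scaling without L7 replicate 3, 1 was called, a setting chosen after seeing the data, as was the longest coding transcript. The log2 difference of Myh3, -0.02, turned to 0.16 with median of ratios scaling, 0.31 with array weights, 0.10 with Y-linked reads as a covariate, 0.45 without L7 replicate 3, 0.15 without Control replicate 1 and 0.49 with that scaling and L7 replicate 3 left out. Leaving out 1 library at a time gave log2 differences of -0.27 to 0.45 for Myh3, 0.06 to 0.59 for Myh8, 0.37 to 1.70 for Myh2, 0.57 to 1.38 for Myh1, 0.47 to 1.50 for Myh4, -0.30 to 0.09 for Myh7 (0.088 without Control replicate 2) and 0.27 to 0.86 for Myh7b. In percentage points it gave -16.6 to 0.355 for the developmental share, -0.325 to 16.6 for the fast share, -8.33 to 1.46 for the share of Myh8, -0.250 to 0.786 for Myh2, -2.92 to 6.19 for Myh1, -0.906 to 12.6 for Myh4 and -0.0026 to 0.0278 for Myh6. For log2 ratios it gave -0.27 to 0.39 for Myh4 over Myh1, -0.19 to 0.46 for Myh2 over Myh1 and -0.76 to 0.25 for Myh7 over Myh3, and 0 or 1 gene was called. The cause of these turns beyond the library left out was not tested. Of 353 values under alternatives 330 kept their direction or stayed within the spread of the libraries. Some of these could not move. Shares and ratios do not depend on library scaling, ratio differences do not depend on gene length, and the replicate block leaves each difference as it was. The tally is therefore no measure of how firm the results are. With the replicate block 0 genes were called. Because every replicate number occurs in both groups, the block leaves the log2 difference of Myh4 at 1.13 by construction. Its SE was 0.35 with the block and 0.54 without it. Same-numbered libraries had deviations correlated at 0.32, -0.07 and 0.09, and not every library matched its own number best. With 3 libraries per group and L7 replicate 3 apart from the others, these values cannot decide whether the numbers pair the libraries. Myh6 and Myh7b rest on 8 to 181 reads per library, which limits what can be seen of them.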
